A study of Mus musculus with 16 samples.

Results

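The keratins of the interfollicular epidermis were followed in mouse wounds over 16 arrays. The 7 genes were Krt5, Krt14 and Krt15 of the basal layer and Krt1, Krt10, Krt2 and Krt77 of the suprabasal layers. The genes were chosen by name, with earlier results of these data known. Every probe whose transcript accession maps to one of these symbols in RefSeq was taken, whatever its values. This gave 10 of 39429 probes and 7 of 20828 gene symbols, with a pair of probes each for Krt5, Krt10 and Krt2 and 1 probe for each of the other genes.

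Keratins are filament proteins that work as pairs of a type I and a type II chain. In the basal layer, dividing keratinocytes make Krt5 (type II) and Krt14 (type I), and Krt15 is a type I keratin of basal cells and of the hair follicle bulge. Cells that leave the basal layer switch to Krt1 (type II) and Krt10 (type I). Krt2 is a type II keratin of later suprabasal cells, prominent in thick mouse skin such as ear and tail, and Krt77 is a further type II keratin, known from sweat gland ducts and mouse epidermis. In a healing wound, keratinocytes at the edge take up Krt6, Krt16 and Krt17 before the new epidermis stratifies.

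RNA came from wounds of 4 mm diameter on the backs of female mice, taken with the intact skin around them. The WT group was C57BL/6J, aged 10 to 12 weeks. The 3 other groups were db/db mice of C57BLKS/J background, aged 10 weeks, which are homozygous for the db mutation of the leptin receptor gene, Lepr, and become obese and diabetic. They were left untreated (db/db) or had their wounds treated daily. The treatment was estradiol benzoate, 0.75 μg/g/day, diluted in sesame oil (db/db + estrogen), or the oil only (db/db + vehicle). Each group had 2 arrays labelled day 7 after wounding and 2 labelled day 14. Because WT and db/db mice differ in strain as well as in the receptor, the mutation and the background cannot be told apart. The sources used here do not say whether the arrays of a group came from separate mice, so the tests measure the spread between arrays.

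The values are the authors' processed signals on a log2 scale, after subtraction of the 75th percentile of the array, so that 0 is the level of a probe at that percentile and each unit is a factor of 2. The 75th percentile lay between 1091 and 2548 intensity units, between 70.1% and 79.0% of probes were well above background, and no spot was saturated. A fold change was called where limma's moderated test gave an unadjusted p under 0.05 and the change passed 2-fold, which are the thresholds of the study, and the p adjusted over all probes tested is given beside each call. The day labels are not settled. Of 80 fold changes printed for single genes in db/db vs WT and db/db + estrogen vs db/db, 0 were found within 1% on arrays carrying the printed day and 79 on arrays carrying the other day, among them both that concern an epidermal keratin. The files do not tell whether the labels or the printed days are right, and the labels are used here as names of the arrays. Each labelled day also had a scan day of its own, so that these cannot be told apart either.

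The genes lie in the mouse keratin clusters, with Krt14, Krt15 and Krt10 on chromosome 11 and Krt5, Krt2, Krt1 and Krt77 on chromosome 15, where Krt2, Krt1 and Krt77 follow one another. RefSeq promoter windows of build GRCm38.p6 were at hand for 5 of the 7 genes, each running from 250 bases before to 50 bases after an annotated start. The stretch from 50 bases before to 10 after the start is shown for Krt5 and for the suprabasal keratins that have a window. All are on the minus strand and are written 5′ to 3′ along the gene, with capitals for a match to the TATA motif, searched as TATANA, that begins 40 to 20 bases before the start.
Krt5, chr15:101712896-101712955: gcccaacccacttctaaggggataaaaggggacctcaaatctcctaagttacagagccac
Krt10, chr11:99389355-99389414: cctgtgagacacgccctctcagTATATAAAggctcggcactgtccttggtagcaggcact
Krt2, chr15:101818160-101818219: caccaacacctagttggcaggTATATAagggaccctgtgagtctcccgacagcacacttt
Krt77, chr15:101869696-101869755: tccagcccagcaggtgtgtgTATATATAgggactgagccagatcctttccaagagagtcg
The match began 28 bases before the start in Krt10, 29 in Krt2 and 30 in Krt77, and Krt5 had no match to TATANA in this stretch. Krt5 reads gataaaa in the same part of the stretch, which the motif as searched cannot match, so a TATA-like element is not excluded. Over all 32851 promoter windows of the same length, 3.11% held TATANA at this place on the gene's strand. Searched on both strands over the whole window, the motif was held by 3 of the 5 keratin windows and by 24.7% of all windows. The full estrogen response element, which is GGTCA and TGACC with any 3 bases between them, was found in 0 of the 5 windows and in 0.07% of all windows, and the AP-1 motif TGANTCA in 0 of the 5 and in 7.81%. CCAAT was held by 2 of the 5, Krt10 and Krt2, and by 37.4% of all windows. For Krt14 the window begins at an upstream alternative start, so its promoter is not shown. That window is still among the 5 counted, and a motif missing from it does not speak for the main Krt14 promoter.

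Krt5 and Krt14, the pair of the basal layer, varied least over the arrays. The brightest probe of Krt5 read 7.37 and 7.03 in WT of labelled day 7, 6.40 and 6.76 in db/db, 7.06 and 7.53 in db/db + vehicle, and 7.72 and 7.55 in db/db + estrogen. On arrays of labelled day 14 it read 7.28 and 7.47 in WT, 6.03 and 7.01 in db/db, 7.44 and 7.48 in db/db + vehicle, and 7.42 and 7.11 in db/db + estrogen. Thus the db/db arrays were the lowest of each labelled day, and from the lowest to the highest array the signal spanned 3.24-fold. The other Krt5 probe, A_66_P116076, had a wider span of 7.21-fold, with the db/db arrays lowest on labelled day 7 (0.33 and 0.20). On labelled day 14 db/db replicate 1 was the lowest (−0.92) and estrogen replicate 2 (0.18) lay below db/db replicate 2 (0.74). The correlation between the probes was 0.846 over 16 arrays. Krt14, the partner of Krt5, was 6.58 and 6.25 in WT, 5.72 and 6.08 in db/db, 7.04 and 6.42 in db/db + vehicle and 6.07 and 5.88 in db/db + estrogen of labelled day 7. For labelled day 14 its arrays read 7.05 and 7.05 in WT, 5.46 and 6.81 in db/db, 7.30 and 7.04 in db/db + vehicle and 7.29 and 6.57 in db/db + estrogen. Its span was 3.58-fold, again with an untreated db/db array at the bottom. In db/db + estrogen of labelled day 7 the partners parted: Krt5 was at its highest group mean (7.64 ± 0.12, SD, n = 2) while Krt14 was at its second lowest (5.98 ± 0.14, SD, n = 2).

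**Figure D1:**
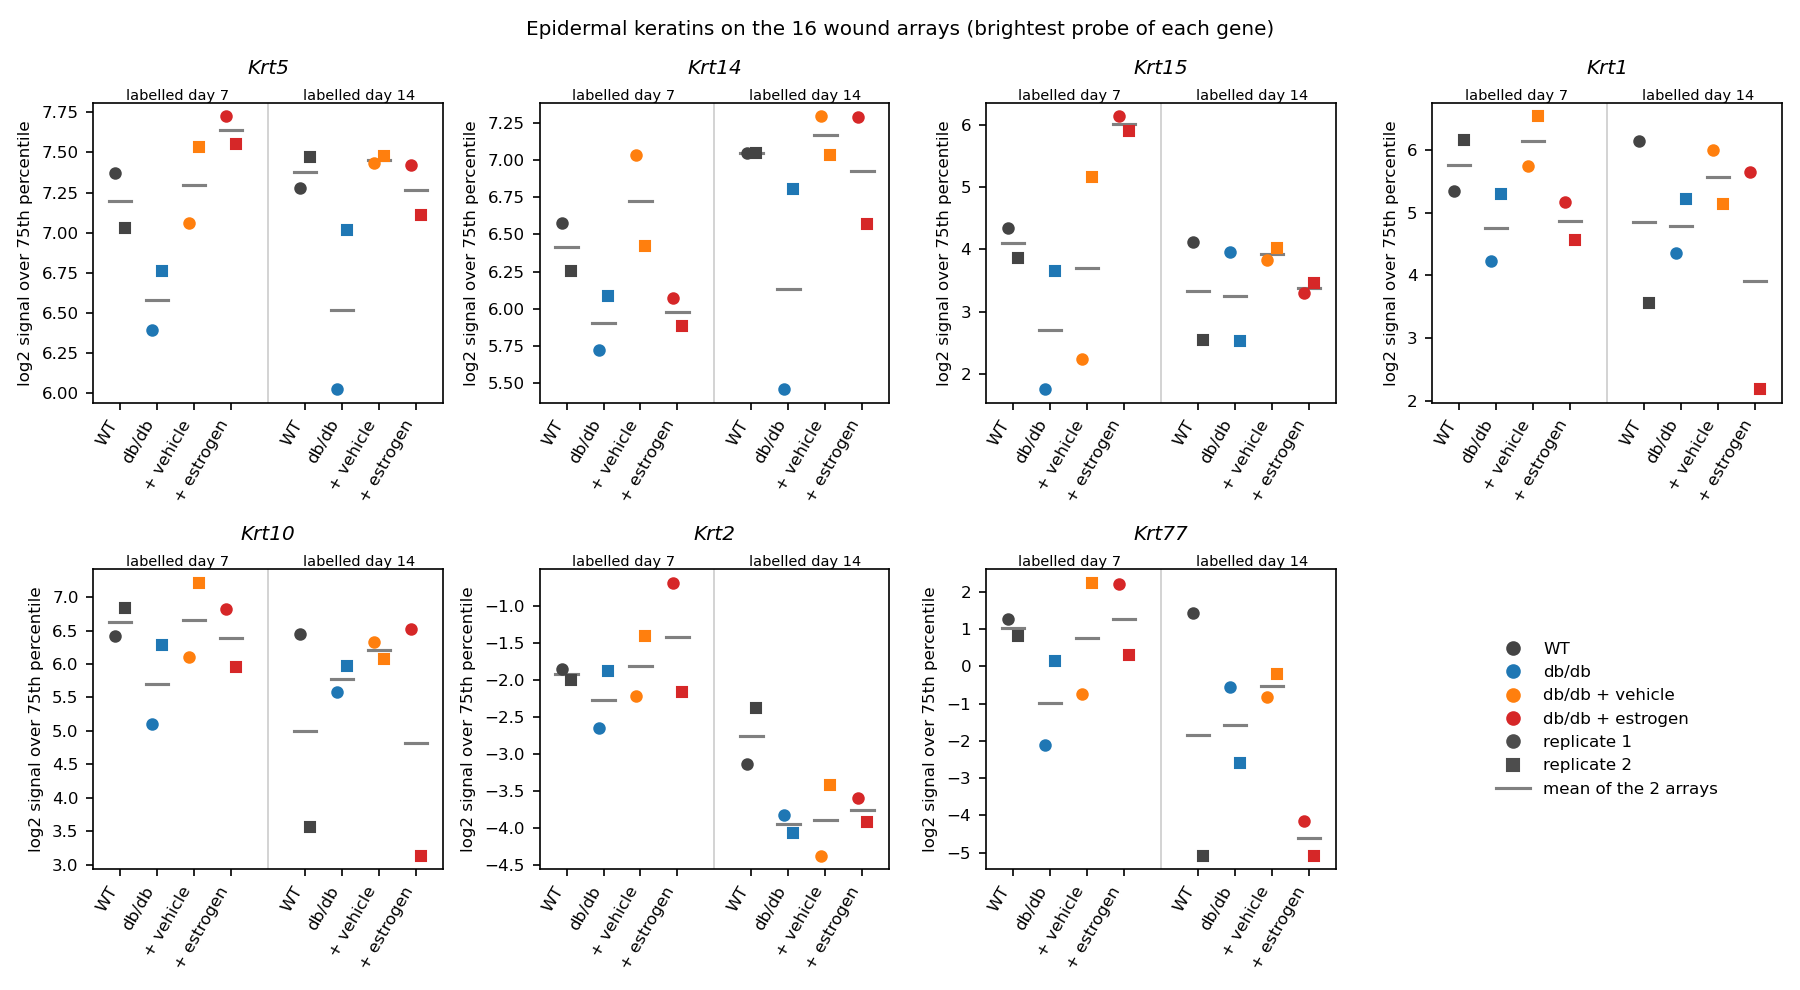
Level of each keratin on the 16 arrays, as log2 signal over the array's 75th percentile for the brightest probe of the gene, by treatment and labelled day. Circles are replicate 1, squares replicate 2, grey lines the mean of the 2 arrays, and every panel has its own axis: Krt5 and Krt14 span 3.24-fold and 3.58-fold, while Krt1, Krt10 and Krt77 drop on replicate 2 of WT and of db/db + estrogen of labelled day 14.

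Krt15 spanned 20.7-fold. It read 4.34 and 3.86 in WT, 1.76 and 3.66 in db/db, 2.25 and 5.16 in db/db + vehicle and 6.13 and 5.90 in db/db + estrogen of labelled day 7. On labelled day 14 the readings were 4.12 and 2.55 in WT, 3.96 and 2.54 in db/db, 3.83 and 4.03 in db/db + vehicle and 3.30 and 3.46 in db/db + estrogen. The pair of estrogen arrays of labelled day 7 stood above all 14 others, and among the other groups the arrays of neighbouring groups overlapped. The SD between arrays pooled over the groups was 1.03 for Krt15, against 0.32 for Krt5 and 0.44 for Krt14.

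Krt1 and Krt10, the first pair of suprabasal cells, moved together. Krt1 was at 5.35 and 6.16 in WT, 4.22 and 5.30 in db/db, 5.75 and 6.54 in db/db + vehicle and 5.18 and 4.56 in db/db + estrogen of labelled day 7. On labelled day 14 it was at 6.14 and 3.56 in WT, 4.36 and 5.22 in db/db, 5.997 and 5.13 in db/db + vehicle and 5.64 and 2.19 in db/db + estrogen. Replicate 2 of WT and replicate 2 of db/db + estrogen were thus the lowest of the 16 arrays. Krt10 showed the same: it was 6.42 and 6.84 in WT, 5.10 and 6.29 in db/db, 6.10 and 7.21 in db/db + vehicle and 6.83 and 5.95 in db/db + estrogen of labelled day 7. The readings of labelled day 14 were 6.45 and 3.56 in WT, 5.58 and 5.97 in db/db, 6.33 and 6.08 in db/db + vehicle and 6.52 and 3.13 in db/db + estrogen. The other Krt10 probe followed it closely (r = 0.996). Over the arrays Krt1 spanned 20.4-fold and Krt10 16.9-fold, and most of this lay within groups, since the pooled SD between arrays (1.20 and 1.22) exceeded the SD of the 8 group means (0.70 for both).

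Replicate 2 of WT and replicate 2 of db/db + estrogen, both of labelled day 14, therefore stand apart for the suprabasal pair and not for the basal pair. With each gene centred on its mean over the 16 arrays, Krt1 and Krt10 averaged −1.93 and −2.83 there, while Krt5 and Krt14 averaged 0.41 and −0.01. On the 14 other arrays the suprabasal average less the basal average ran from −0.29 to 1.26, against −2.34 and −2.82 on these. Other epidermal lists were also lower there than on the partner arrays, though not only there. The medians of the centred values were −0.61 and −0.99 for 14 genes of suprabasal differentiation (0.49 and 0.32 on the partner arrays). They were −0.27 and −0.72 for 16 desmosome genes (0.72 and 0.51). For 8 keratinocyte markers other than keratins, which include Dsp and Perp of the desmosome list, they were −0.42 and −0.79 (0.80 and 0.61). Replicate 1 of untreated db/db read −0.83 and −0.90, −1.08 and −0.98, and −1.06 and −1.04 for these lists on labelled days 7 and 14. Skeletal muscle markers were higher there than on the partner arrays, with centred medians of 0.89 and 1.43 against −0.36 and −2.05. All 8 were well above background on every array, and their summed signal was 707 and 825 against 312 and 95.2 times the 75th percentile. High muscle values were not confined to these arrays. The medians were 0.86 and 0.86 (sums 618 and 578) on the estrogen arrays of labelled day 7. Untreated db/db replicate 1 of labelled day 14 read 0.62 (sum 554). In a bulk sample, fewer cells of a type and less RNA per cell cannot be told apart, and the part of muscle or of the cut of tissue in these values was not tested. WT replicate 2 was also the dimmest array, with the 75th percentile at 1091.

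**Figure D2:**
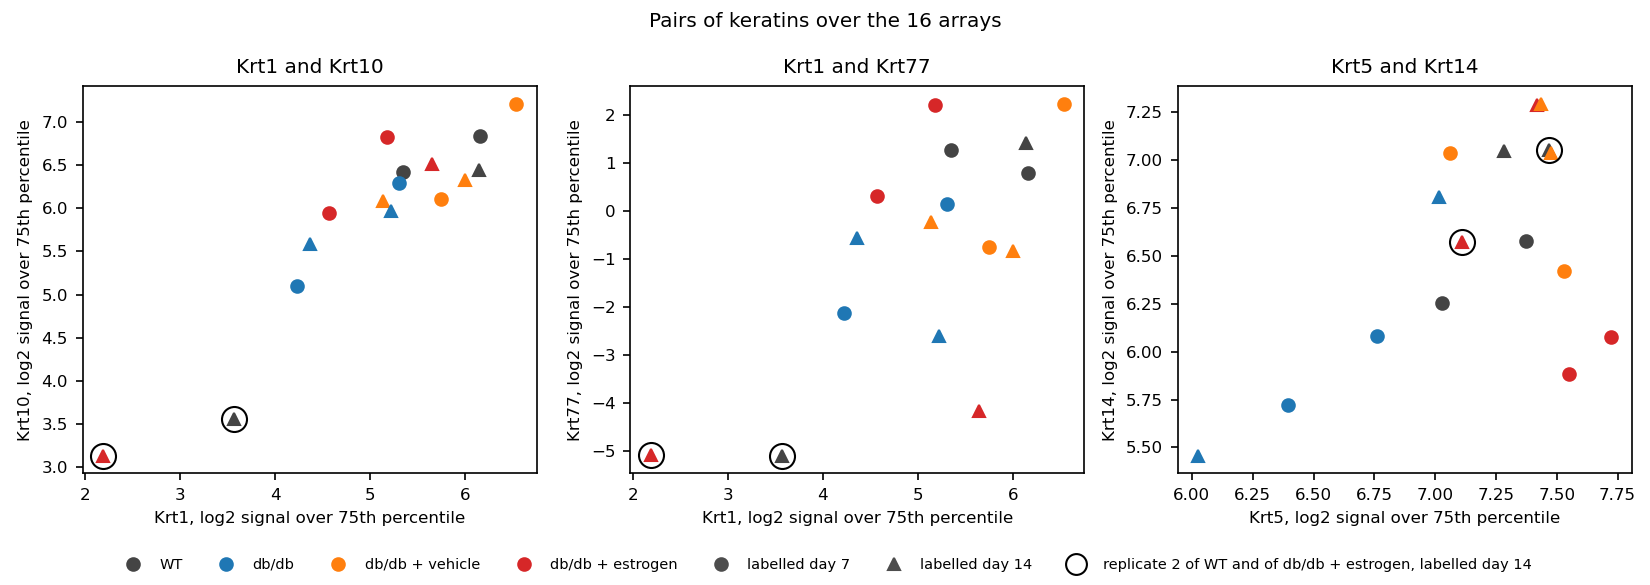
Krt1 against Krt10, Krt1 against Krt77 and Krt5 against Krt14, each as log2 signal over the 75th percentile, 1 point for each of 16 arrays. Ringed points are replicate 2 of WT and of db/db + estrogen of labelled day 14, which are the lowest for Krt1 and Krt10 (r = 0.926 over all arrays, 0.825 without them) and lie among the other arrays for Krt5 and Krt14.

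Krt77 had the widest span of the brightest probes, 161-fold. It read 1.28 and 0.81 in WT, −2.11 and 0.15 in db/db, −0.73 and 2.25 in db/db + vehicle and 2.21 and 0.32 in db/db + estrogen of labelled day 7. For labelled day 14 it read 1.43 and −5.08 in WT, −0.55 and −2.59 in db/db, −0.83 and −0.21 in db/db + vehicle and −4.15 and −5.08 in db/db + estrogen. Here both estrogen arrays of labelled day 14 were low, including the replicate on which Krt1 and Krt10 were not, and all 16 readings were well above background.

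The Krt2 probes disagreed. Probe A_55_P2148504, the brighter on average and well above background on all 16 arrays, read −1.85 and −1.99 in WT, −2.65 and −1.88 in db/db, −2.21 and −1.41 in db/db + vehicle and −0.69 and −2.16 in db/db + estrogen of labelled day 7. On labelled day 14 it read −3.14 and −2.38 in WT, −3.83 and −4.07 in db/db, −4.37 and −3.42 in db/db + vehicle and −3.60 and −3.92 in db/db + estrogen, so that both WT arrays were above all 6 db/db arrays of that label. Probe A_51_P343474 was well above background on 8 of 16 arrays. It read 2.04 and −1.75 in db/db + estrogen and −1.48 and −3.51 in db/db + vehicle of labelled day 7, −3.96 in db/db replicate 2 of that day, and −3.51 in db/db replicate 1 and −6.19 and −4.82 in db/db + vehicle of labelled day 14. On the 4 WT arrays, both estrogen arrays of labelled day 14 and the remaining db/db arrays it was not well above background. The correlation between the probes was 0.537 over 16 arrays (Spearman 0.412), given as a description, and the files used here do not hold the probe sequences that would tell which transcripts each reads.

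**Figure D3:**
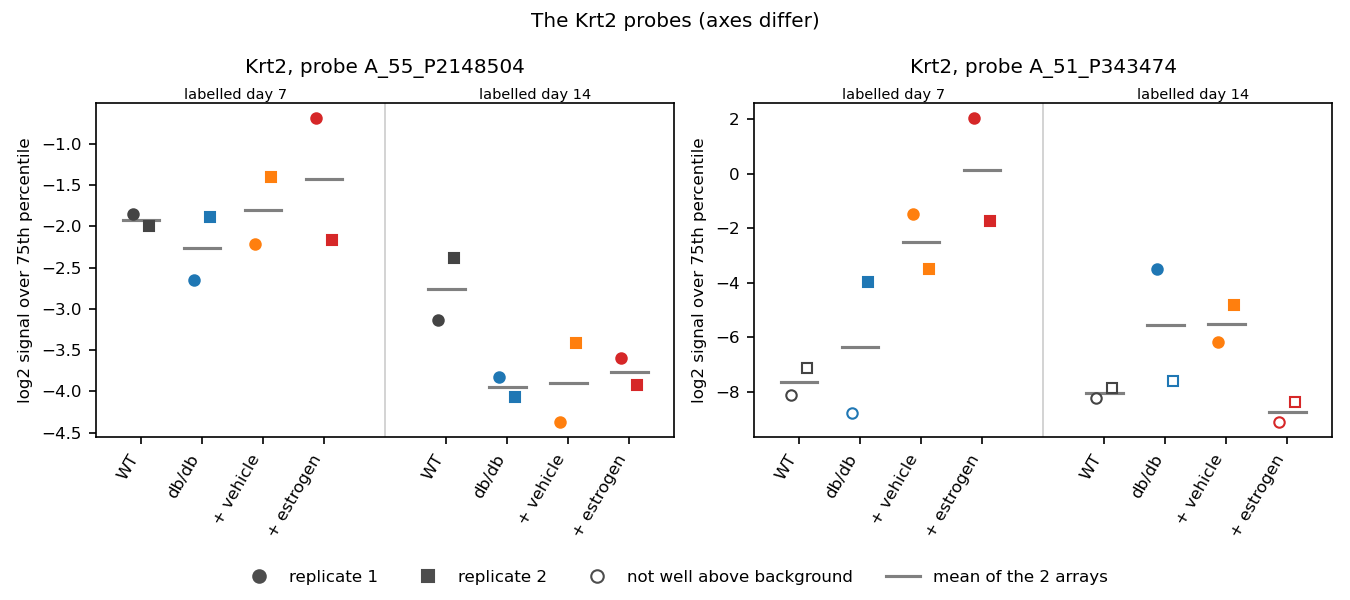
Both Krt2 probes on the 16 arrays as log2 signal over the 75th percentile, with open symbols where the spot was not well above background and grey lines for the mean of 2 arrays. WT lies above the db/db groups of labelled day 14 for A_55_P2148504 and is not well above background on any array for A_51_P343474.

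The first comparison asked how the wounds of db/db mice differed from those of WT mice. For labelled day 7 the 7 keratins were all lower in db/db by the fitted value, by between 0.35 (Krt2) and 2.03 (Krt77) on the log2 scale, with a median of −0.93 against −0.05 over all probes tested. Both db/db arrays lay below both WT arrays for 6 of the 7, the exception being Krt2, where 31.9% of all probes did so. However, 0 of the 7 were called by limma and 0 had an unadjusted p below 0.05, where 14.1% of all probes were called and 9.07% also after adjustment. The adjusted p of the keratins ran from 0.207 (Krt5, −0.62 ± 0.30, SE) to 0.700 (Krt2). The gap was wider on slide 1, with replicate 1 of each group (Krt15 −2.58, Krt77 −3.39), than on slide 2, with replicate 2 (Krt15 −0.20, Krt77 −0.66).

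Some of the genes that surround these keratins in the epidermis were called in that comparison, and those called were lower in db/db. Of 16 desmosome genes, to whose products keratin filaments attach, 6 were called lower, led by the desmosomal cadherins Dsc3 (−2.43 ± 0.31, SE, adjusted p = 0.00163) and Dsg2 (−2.06 ± 0.18, adjusted p = 0.000272). Of 14 genes of suprabasal differentiation 5 were called lower, with involucrin, Ivl, an early protein of the cornified envelope, at −2.66 ± 0.73 (adjusted p = 0.0404). Of 13 basal adhesion genes 4 were called lower, among them Cdh3, which encodes P-cadherin (−1.71 ± 0.29, adjusted p = 0.00623), and Trp63, the transcription factor that sets up stratified epithelium (−1.63 ± 0.38, adjusted p = 0.0219). The list medians were −1.05, −1.06 and −0.36. Of 8 keratinocyte markers 3 were called lower (median −1.07), but Trp63, Cdh3, Itgb4, Dsp and Perp among the 8 are also in the lists above. Among markers of other cells, 4 of 11 leukocyte markers were called higher and 2 lower, and 4 of 6 melanocyte markers were called lower (Tyrp1, Dct, Pmel and Slc45a2, the last not well above background in db/db). Of the inner root sheath keratins, Krt27, Krt28 and Krt73 were called lower among the 4 measured on all arrays compared, with Krt28 at −5.28 ± 1.06 (adjusted p = 0.0127), and 2 of 7 adipocyte markers were called higher. The part of these cells in the keratin values was not tested.

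For labelled day 14 the same comparison gave 1 call among the 7 keratins, where 18.0% of all probes were called and 13.5% also after adjustment. Krt2 was lower in db/db by its brighter probe (−3.95 ± 0.17 against −2.76 ± 0.54, SD, n = 2), a log2 fold change of −1.19 ± 0.52 (SE, adjusted p = 0.133). The dimmer probe was well above background on 1 of 2 db/db arrays and on no WT array, so it was not tested. Both db/db arrays were on slide 3 and both WT arrays on slide 4, so that no slide gives a value of its own for this comparison. With the slide as a fixed block, estimated through the treated groups, Krt2 was at −0.87 (adjusted p = 0.548) and not called, and Krt14 was called in its place. The call of the brighter probe was also lost without either db/db array (−1.31 and −1.07). Krt5 and Krt14 were at −0.85 ± 0.30 (adjusted p = 0.0762) and −0.92 ± 0.41 (adjusted p = 0.140), under the 2-fold limit although their unadjusted p passed. The second Krt5 probe was called, at −1.79 ± 0.45 (adjusted p = 0.0227), the only keratin probe in this comparison to pass after adjustment. Both db/db arrays lay below both WT arrays for 3 of the 7 genes, Krt5, Krt14 and Krt2, where 40.3% of all probes did so. Krt1 (−0.06 ± 1.08), Krt10 (0.78 ± 1.097), Krt15 (−0.08 ± 0.93) and Krt77 (0.26 ± 1.82) had errors larger than the difference. Without the replicates 2 of WT and db/db + estrogen that stand apart, which leaves 1 WT array, Krt2 was −0.81 and not called, Krt1 was −1.35, Krt10 −0.67 and Krt77 −3.00, and 0 of the 7 were called against 14.3% of all probes. In the basal adhesion list 5 of 13 genes were called lower, with Cdh3 at −1.62 ± 0.29 (adjusted p = 0.00583) and Col17a1, a hemidesmosome collagen, at −1.36 ± 0.32 (adjusted p = 0.0176), and 3 of 16 desmosome genes were called lower, with Dsg2 at −2.22 ± 0.18 (adjusted p = 0.000149). Of the wound-edge keratins, Krt17 (−1.74 ± 0.45, adjusted p = 0.0260) and Krt16 (−1.14 ± 0.38, adjusted p = 0.0615) were called lower.

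**Figure D4:**
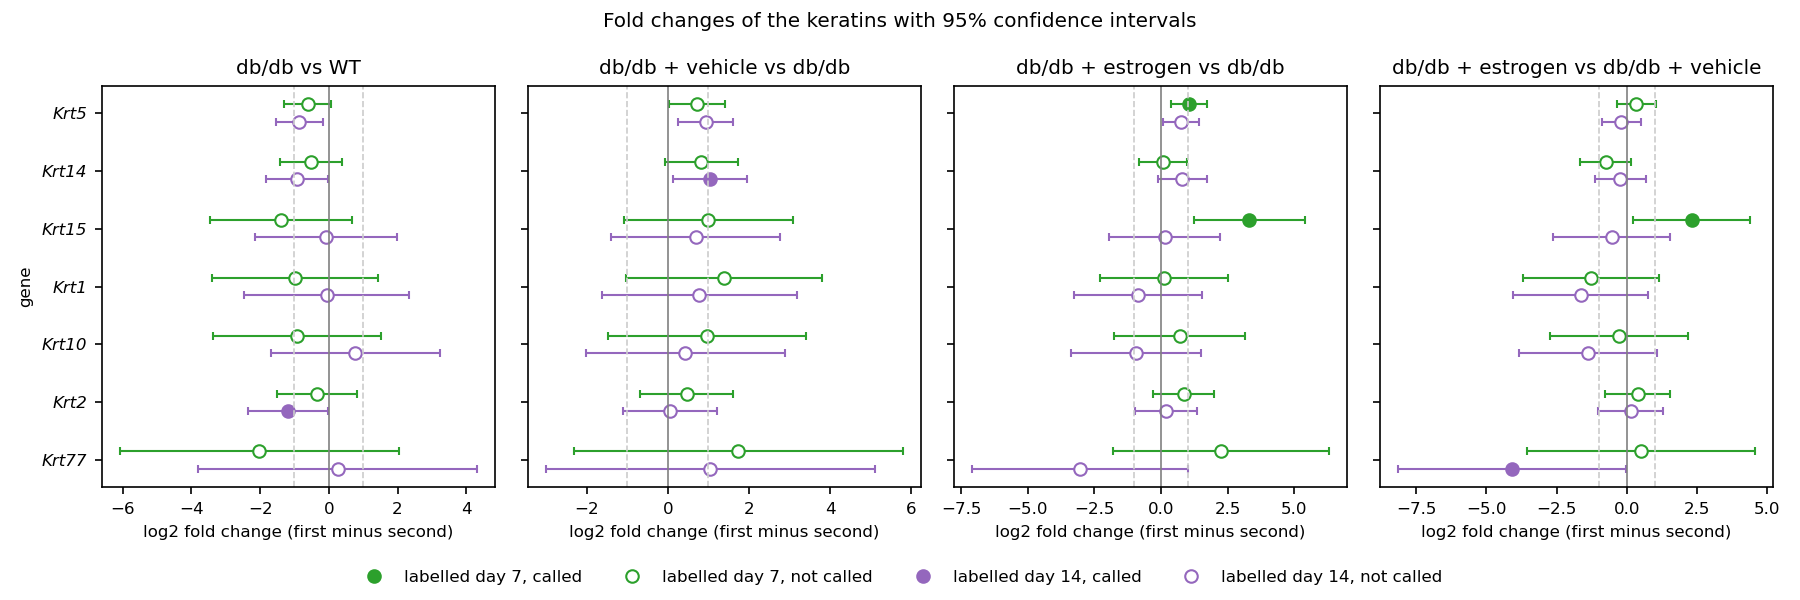
Log2 fold changes of the 7 keratins (brightest probe) in 4 comparisons, with 95% confidence intervals from limma, filled where the change was called and open where it was not; dashed lines mark 2-fold. Intervals are narrow for Krt5, Krt14 and Krt2 and wide for Krt77, and the called points are Krt5 and Krt15 for estrogen of labelled day 7, Krt2 for db/db vs WT, Krt14 for vehicle and Krt77 for estrogen vs vehicle of labelled day 14.

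Sesame oil alone was compared with no treatment. In labelled day 7, 0 of the 7 keratins were called, 1 (Krt5, 0.72 ± 0.30, adjusted p = 0.348) had an unadjusted p below 0.05, and 4.82% of all probes were called and 0.148% also after adjustment. All 7 fitted values were above 0, with a median of 0.96 against 0.05 over all probes, and both vehicle arrays lay above both db/db arrays for 3 of them, Krt5, Krt14 and Krt1, where 22.4% of probes did so. In labelled day 14, Krt14 was called higher (7.17 ± 0.18 against 6.13 ± 0.95, SD, n = 2), at 1.04 ± 0.41 (SE, adjusted p = 0.236), where 7.51% of probes were called and 0.193% also after adjustment. Krt5 reached 0.93 ± 0.30 (adjusted p = 0.177) by its brightest probe and 1.64 ± 0.45 (adjusted p = 0.135, called) by the other. The Krt14 call was lost without db/db replicate 1, the lowest array for both genes (0.36), and without either vehicle array (0.91 and 1.16). The comparisons of db/db with WT, vehicle and estrogen share the db/db arrays. In the surrounding lists, 5 of 16 desmosome genes were called higher with vehicle on either labelled day, and 4 and 5 of the 13 basal adhesion genes, with Trp63 at 1.30 ± 0.38 (adjusted p = 0.189) and 1.80 ± 0.38 (adjusted p = 0.0884).

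Estrogen was compared with no treatment and with its vehicle. In labelled day 7 against untreated db/db, 2 of the 7 keratins were called, where 9.92% of all probes were called and 4.84% also after adjustment. Krt15 was higher by 3.31 ± 0.93 (SE, adjusted p = 0.0697), which is 9.89-fold, with means of 6.01 ± 0.17 against 2.71 ± 1.34 (SD, n = 2). Krt5 was higher by 1.06 ± 0.30 (adjusted p = 0.0753), or 2.08-fold, and by 1.43 ± 0.45 (adjusted p = 0.100) through its second probe. Both estrogen arrays lay above both db/db arrays for 3 of the 7, Krt5, Krt15 and Krt77, where 29.9% of probes did so. Krt14, the partner of Krt5, was at 0.08 ± 0.41 (adjusted p = 0.946), and Krt1 at 0.11 ± 1.08 (adjusted p = 0.973). On slide 1 alone Krt15 was higher by 4.37 and on slide 2 by 2.24, and Krt5 by 1.33 and 0.79. Without db/db replicate 1, the lowest array for Krt15, the changes were 2.36 and 0.87 and neither was called, and without estrogen replicate 1 Krt5 was at 0.97 and not called.

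Against vehicle, 1 of the 7 was called for labelled day 7, where 8.99% of probes were called and 2.56% also after adjustment. This was Krt15 at 2.31 ± 0.93 (adjusted p = 0.196), with vehicle at 3.71 ± 2.06 (SD, n = 2), whose arrays differed from each other by more than this change. Against the higher vehicle array, on slide 2, estrogen was above by 0.73, and against the lower one, on slide 1, by 3.88. The call was lost without vehicle replicate 1 (0.85) and without either estrogen array (2.19 and 2.43). Krt1 (−1.27 ± 1.08) and Krt14 (−0.75 ± 0.41) were not called (adjusted p = 0.541 and 0.329). The arrays did not overlap for 4 of the 7, with Krt5 and Krt15 higher and Krt1 and Krt14 lower, where 58.8% of all probes did not overlap.

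The estrogen arrays of labelled day 7 were at the bottom for the keratins of the wound edge. Krt6b read 0.49 and 2.00 there and between 6.21 and 7.81 on the 14 other arrays, and Krt16 read 3.70 and 3.998 there and between 6.09 and 8.01 elsewhere. Against vehicle, all 4 wound-edge keratins tested were called lower, with Krt6b at −5.90 ± 0.54 (adjusted p = 0.00170), Krt16 at −3.70 ± 0.38 (adjusted p = 0.00288) and Krt6a at −3.88 ± 0.80 (adjusted p = 0.0354). Against untreated db/db 3 of the 4 were called lower, with Krt6b at −5.04 ± 0.54 (adjusted p = 0.00124). Krt6a and Krt6b are near-identical genes, and their probes may share signal. The keratins of the inner root sheath of the hair follicle went the other way in the same arrays, as far as they could be measured. Krt27, Krt28, Krt72 and Krt73 were well above background on both db/db and both estrogen arrays, and all 4 were called higher with estrogen, Krt28 by 5.04 ± 1.06 (adjusted p = 0.0240) and Krt27 by 4.46 ± 1.13 (adjusted p = 0.0490). On both db/db arrays Krt25 and Krt26, and on 1 of them Krt71, were not well above background, so these passed the filter only through the estrogen group. Against vehicle, Krt25, Krt28 and Krt71, measured on all 4 arrays, were called higher. Krt25, one of them, read 0.99 and 1.40 with estrogen, −5.23 and −1.52 with vehicle and −1.93 and 2.75 in WT of labelled day 7, while its db/db readings were not well above background. Of the surrounding genes, 4 of 13 of basal adhesion were called higher against db/db, led by Col17a1 (2.07 ± 0.32, adjusted p = 0.00608), and 0 of 14 of suprabasal differentiation. Against vehicle, 3 of those 14 were called lower, with the cross-linking enzyme Tgm1 at −1.93 ± 0.56 (adjusted p = 0.0900). The summed leukocyte markers were at 137 and 161 with estrogen, against 344 to 599 times the 75th percentile on the db/db and vehicle arrays of either labelled day. All 11 markers were well above background throughout. The medians of their centred values were 0.02 and 0.07 with estrogen, 0.47 and 0.79 in db/db and 0.51 and 0.25 with vehicle of labelled day 7. On labelled day 14 they were 0.06 and −0.15 in db/db and 0.16 and 0.05 with vehicle. Against db/db of labelled day 7, 2 of the 11 were called higher and 4 lower with estrogen, and against vehicle 1 higher and 3 lower. Melanocyte markers summed to 3.01 and 4.90 times the 75th percentile with estrogen, against 1.57 and 1.68 in db/db and 0.248 and 2.06 with vehicle, and 4 of 6 were called higher in either comparison. Adipocyte markers had a median change of 1.11 against db/db with 1 of 7 called higher, and 0 of 8 skeletal muscle markers were called (median 1.009). The part of these cells in the keratin values was not tested. The estrogen change of Krt6b against untreated db/db differed between the labelled days by −5.77 ± 0.76 (adjusted p = 0.0395).

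**Figure D5:**
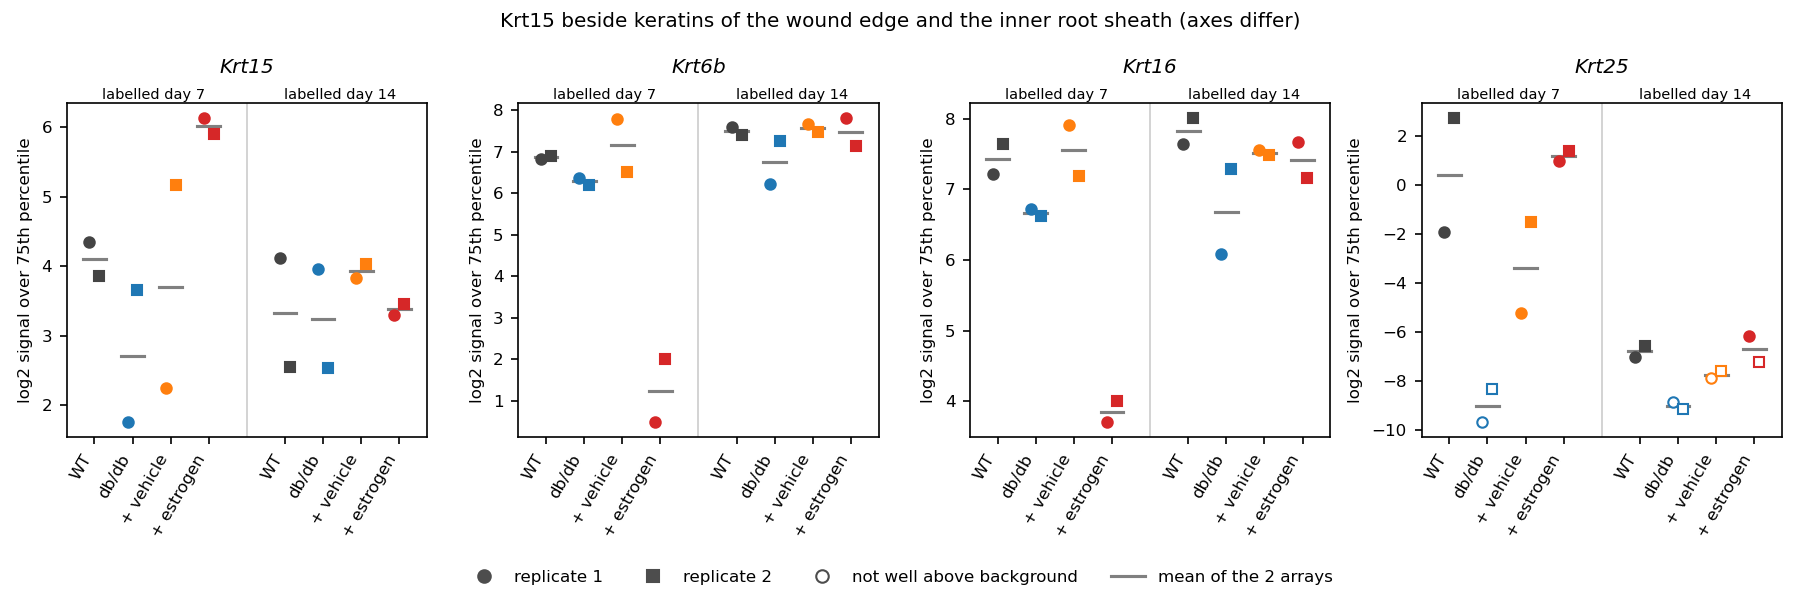
Krt15 beside Krt6b and Krt16 of the wound edge and Krt25 of the inner root sheath on the 16 arrays, as log2 signal over the 75th percentile; open symbols were not well above background, grey lines are means of 2 arrays, and the axes differ. The estrogen arrays of labelled day 7 are the highest for Krt15 (6.13 and 5.90) and the lowest for Krt6b (0.49 and 2.00) and Krt16 (3.70 and 3.998).

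The second Krt2 probe, A_51_P343474, was not well above background on either WT array of labelled day 7 and entered the test through the treated groups alone, so that only bounds can be given. Relative to WT, the group mean was at least 106.8-fold higher with estrogen and at least 17.1-fold higher with vehicle. The arrays of these groups differed by 3.79 and 2.03 on the log2 scale, so the bounds hold for means and not for each array. No p-value is given, because it would rest in part on WT readings that were not well above background. For this bound the dim WT reading was replaced, array by array, with the weakest signal of any probe that was well above background. Of the untreated db/db arrays 1 of 2 was well above background, and the lower estrogen array read −1.75 against −3.96 there. The group means were 0.15 with estrogen and −6.37 in untreated db/db, the latter resting in part on the array that was not well above background. The paper prints Krt2, under the other day, among the genes most upregulated specifically with estrogen, and its fold change matches these means. The brighter Krt2 probe gave 0.50 ± 0.52, 0.11 ± 0.52 and 0.84 ± 0.52 in these comparisons and was not called in any of them.

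In labelled day 14, 0 of the 7 keratins were called for estrogen against untreated db/db, 1 had an unadjusted p below 0.05 (Krt5, 0.74 ± 0.30, adjusted p = 0.512), and 3.91% of probes were called and 0.0991% also after adjustment. Krt77 was at −3.05 ± 1.82 (adjusted p = 0.718). Against vehicle, Krt77 was called lower, at −4.62 ± 0.66 against −0.52 ± 0.43 (SD, n = 2), a change of −4.10 ± 1.82 (SE, adjusted p = 0.873), where 0.984% of probes were called and 0.0% also after adjustment. Its interval ran from −8.16 to −0.03, and the call was lost when any of the 4 arrays compared was left out, with changes between −4.56 and −3.633. Krt77 was lower by 3.33 on slide 3 and by 4.87 on slide 4, and the call was lost when the slide entered the fit, either as fixed or as random block (adjusted p = 0.898 and 0.934). With both arrays that stand apart left out together, which leaves 1 estrogen array, the change of Krt77 was −3.633. Krt1 (−1.65 ± 1.08) and Krt10 (−1.38 ± 1.097) were below vehicle through estrogen replicate 2 alone: without the arrays that stand apart they were at 0.08 and 0.31.

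Treated db/db wounds were also set against WT. For labelled day 7, 0 of the 7 keratins were called for estrogen, where 8.13% of probes were called and 3.65% also after adjustment, and 0 for vehicle, where the shares were 10.3% and 5.57%. For labelled day 14, 0 were called for estrogen against shares of 13.3% and 8.37%, and 0 for vehicle against 13.4% and 8.81%. None of the 7 had an unadjusted p below 0.05 in these 4 comparisons by the brightest probe. Nearest to a call were Krt15 for estrogen of labelled day 7 (1.91 ± 0.93, adjusted p = 0.312) and Krt2 for vehicle of labelled day 14 (−1.14 ± 0.52, adjusted p = 0.165), and the second Krt5 probe was called for estrogen of labelled day 14 (−1.13 ± 0.45, adjusted p = 0.133). Without the arrays that stand apart, 1 estrogen and 1 WT array of labelled day 14 remained, and Krt77 differed between them by −5.58 (SE 1.70, taken from the spread of the other groups, adjusted p = 0.183), where 8.77% of all probes were called.

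The difference of each effect between the labelled days was tested as a contrast of its own, with an adjusted p of 0.05 as the limit. It passed for 0 of the 7 keratins in db/db vs WT (0.693% of all probes), in db/db + estrogen vs db/db (0.0953%), in db/db + vehicle vs db/db (0.0%) and in db/db + estrogen vs db/db + vehicle (0.00979%). The unadjusted p was below 0.05 for 1 of the 7, Krt15 in estrogen vs db/db, whose change was larger by 3.17 ± 1.32 for labelled day 7 (adjusted p = 0.462). For Krt77 the estrogen effect against db/db was 2.25 in labelled day 7 and −3.05 in labelled day 14, a difference of 5.29 ± 2.58 (adjusted p = 0.543).

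The 8 groups were ordered by mean, and each step to the next group was checked for overlap of the arrays. For Krt5, db/db + estrogen of labelled day 7 lay above the next group without overlap, as did WT over db/db of labelled day 7, and the 5 other steps overlapped. For Krt14, Krt1 and Krt77 all 7 steps overlapped. For Krt15 only the top group was clear, for Krt10 only db/db + vehicle over db/db of labelled day 14, and for Krt2 only WT of labelled day 14 over the group after it.

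The keratins were also compared with each other over the 16 arrays, as 21 pairs, with permutation tests of 100000 draws adjusted over the pairs. The draws shuffled the arrays freely over groups, slides and labelled days, so a shift shared by a group or a day counts as likeness. Krt1 and Krt10 were most alike (Pearson r = 0.926, adjusted p = 0.00021; Spearman rho = 0.871, adjusted p = 0.00042), at 0.842 within labelled day 7 and 0.952 within labelled day 14, and 0.825 without the arrays farthest from the Krt1 median. Krt10 and Krt77 had r = 0.794 (adjusted p = 0.00315; rho = 0.703, adjusted p = 0.0183), with 0.536 without the arrays farthest from the Krt10 median. Krt15 and Krt77 had r = 0.659 (adjusted p = 0.0296; rho = 0.815, adjusted p = 0.00189), with 0.619 without the arrays farthest from the Krt15 median. Those were other arrays, replicate 1 of db/db and of db/db + estrogen of labelled day 7. Krt2 and Krt77 passed by rank alone (r = 0.572, adjusted p = 0.0795; rho = 0.703, adjusted p = 0.0183), with r at 0.876 within labelled day 7 and −0.169 within labelled day 14. Krt1 and Krt77 (r = 0.675, adjusted p = 0.0263; rho = 0.553, adjusted p = 0.102) fell to 0.313 without the arrays farthest from the Krt1 median and thus rest on them. The basal partners Krt5 and Krt14 had r = 0.562 (adjusted p = 0.0795; rho = 0.288, adjusted p = 0.366), 0.968 within labelled day 14 and 0.215 within labelled day 7, where the estrogen arrays were high for Krt5 and low for Krt14. Krt14 with Krt10 gave −0.01 (permutation adjusted p = 0.980).

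Among 16292 other named genes well above background on at least 12 arrays, genes among the 3 nearest in pattern to each keratin were found by Pearson's r over the 16 arrays, as a description. For Krt1 they were Serpinb12 (0.947), Stx19 (0.936) and Krt10 (0.926). For Krt10 they were Bbox1 (0.933), Copg2 (0.928) and Lce1f (0.926), with Krt1 at rank 4. For Krt5 they were Krt81 (0.933), Fam47e (0.920) and Col17a1 (0.916), and for Krt14 Ooep (0.986) and Grip1 (0.914), while Krt14 stood at rank 880 for Krt5. For Krt15 they were Cbs (0.913), Prlr (0.905) and Gpt (0.884), for Krt2 Atp9b (0.956) and Rab17 (0.953), and for Krt77 Tesc (0.906), Gpr37 (0.890) and Calm5 (0.890).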

How the data were processed

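Wounds of the 8 groups were profiled on 16 one-colour Agilent mouse arrays, 2 per group, on 4 slides. Groups, labelled days and replicate numbers came from the sample labels. The authors made an intensity for each spot with Feature Extraction 11.0.1.1, background subtracted and spatially detrended, and deposited it with the pixel intensities of the spot and of its local background and with 0 or 1 marks for outlier, saturated and well-above-background spots. The authors also deposited a series matrix of ratios, which equalled the intensity over the array's 75th percentile within 0.1% for at least 99.4% of its probes on every array.

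Here outlier spots were left out, spots of a probe were averaged, log2 was taken and the log2 75th percentile subtracted. Probes were named by RefSeq accession. Where a gene had several probes, the brightest on average was used. A probe was tested where both arrays of a compared group were well above background. All 8 groups entered 1 limma 3.58.1 fit (R 4.3.3), with 8 residual degrees of freedom, and p-values were adjusted by the Benjamini-Hochberg method over all probes tested. The code was tested on simulated data. The members, the gene lists and the tests were chosen with earlier results of these data known. From each list the text names some of the 3 genes of largest change among those called. Sequences are RefSeq, GRCm38.p6. The alternatives tried were normexp background correction (offset 50), quantile normalization, the dim-probe filter, the series matrix, a fit on the compared groups alone, the slide as fixed or random block (statmod 1.5.0), a replicate block, adjusted p-values, other probes of a gene, and leaving out arrays. Leaving out both arrays that stand apart was chosen after seeing the data. Precision is limited by the number of arrays. Some of the genes nearest in pattern to a keratin are not reported here.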

Additional observations from a re-analysis of the deposited data

Results flagged for a closer look

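Krt6b, a keratin of the wound edge, was singled out because its estrogen change against untreated db/db differed between the labelled days, by −5.77 ± 0.76 on the log2 scale (SE, adjusted p = 0.0395 by limma). It was lower by 5.04 for labelled day 7, in both estrogen arrays. None of the 7 epidermal keratins had such a difference.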

How the results depend on the processing

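With 2 arrays a group, counts of keratins called rested on few values. The main counts were, for labelled day 7, 2 (estrogen vs db/db) and 1 (estrogen vs vehicle), for labelled day 14, 1 each for db/db vs WT, vehicle vs db/db and estrogen vs vehicle, and 0 otherwise. Under the alternatives other than leaving out an array, 158 counts stayed within 1.5 times the main count and 30 moved. For estrogen vs db/db of labelled day 7 the count was 1 with quantile normalization and 0 with adjusted p-values, and for estrogen vs vehicle it was 0 with adjusted p-values. Estrogen vs WT of labelled day 7 gave 1 with normexp, the compared groups alone, the mean of probes and the dimmest probe, and vehicle vs WT gave 1 with the last 2 of these. Of labelled day 14, db/db vs WT gave 0 with normexp, quantile normalization, adjusted p-values and the replicate block. Vehicle vs db/db gave 2 with normexp, the slide as fixed block, the mean of probes and the dimmest probe, and 0 with quantile normalization, the compared groups alone, the slide as random block and adjusted p-values. Estrogen vs vehicle gave 0 with quantile normalization, the series matrix, either slide block and adjusted p-values. Estrogen vs db/db gave 1 with the compared groups alone, estrogen vs WT gave 1 with that fit and with the dimmest probe, and vehicle vs WT gave 1 with the slide as random block. Krt2 in db/db vs WT of labelled day 14 read 0.65 with the mean of probes and 2.50 with the dimmest probe, whose WT readings were not well above background, so that these give no direction. The cause of the other moves was not tested.

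With 1 array left out, the lone array of its group being assumed to vary like the other groups, labelled day 7 counts ran from 0 to 3 (estrogen vs db/db), from 0 to 1 (vehicle vs db/db, estrogen vs vehicle, estrogen vs WT) and stayed 0 (db/db and vehicle vs WT). Those of labelled day 14 ran from 0 to 2 (db/db vs WT, and estrogen or vehicle vs db/db, and estrogen vs vehicle), from 0 to 3 (vehicle vs WT) and from 0 to 1 (estrogen vs WT). Without both arrays that stand apart, a choice made after seeing the data, db/db vs WT gave 0, and estrogen vs WT, with 1 array on each side, gave 1. All differences between labelled days stayed at 0. Replicate numbers did not pair the samples (correlations of deviations from −0.454 to 0.389), and on labelled day 7 they coincide with the slide; the replicate block changed no other count of calls by over 1.5 times.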
